A study of Homo sapiens with 4 samples.

Results

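The BCL2 family genes described here were 10 genes taken by symbol from the deposited feature list of 33538 genes: 3 survival genes (BCL2, BCL2L1 and MCL1), 5 BH3-only genes (BCL2L11, BBC3, PMAIP1, BIK and BMF) and 2 effector genes (BAX and BAK1). They were read by single-cell RNA sequencing in BT474, an established human breast cancer line that expresses the estrogen receptor and overexpresses the receptor kinase HER2. Every group received its treatment for 4 h and was 1 library: the solvent DMSO as control, 100 nM fulvestrant, 200 nM neratinib, or 100 nM fulvestrant together with 200 nM neratinib. Fulvestrant binds the estrogen receptor, blocks it and leads to its degradation, and neratinib binds the kinases EGFR, HER2 and HER4 irreversibly. The line stands for 1 tumour, and no drug-free group without DMSO was analysed here.

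Proteins of the BCL2 family decide whether the outer mitochondrial membrane is opened and cytochrome c set free, the step that starts the intrinsic route of apoptosis. BAX and BAK1 form the pores, the survival proteins hold them in check, and the BH3-only proteins bind survival proteins or act on the effectors. Many BH3-only genes are controlled at the level of transcription, and in HER2-driven breast cancer cells the family is known as a point where kinase signalling meets cell death.

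The data were UMI counts, that is, counts of individually tagged transcript molecules, from 15169 cells with at least 5000 UMIs and at least 500 detected genes. The libraries held between 3485 and 4301 such cells, where the labels give a target of 3000, between 82967775 and 102504452 UMIs in those cells, and a median of 22007 to 23010 UMIs per cell. For each gene the UMIs of a library's cells were added up and scaled to the library total as CPM, the UMIs of a gene in each 1000000 UMIs of the cells. All 10 members were among the 12136 genes with a mean of at least 1 CPM over the libraries. With 1 library per group there is no replicate error and no test: square brackets hold 95% intervals that cover counting error only, and variation between cultures is not in them. A gene is called higher or lower in a pair of libraries where its CPM differed by at least 1.25-fold and the interval of the log2 ratio lay off 0. All 9 luminal epithelial markers were present in every library, with KRT8, KRT18, KRT19, EPCAM, GATA3, ERBB2 and TFF1 among them. Their summed level ranged from 6330 to 10018 CPM, while 6 immune markers together gave 1.31 to 1.74 CPM, with CD3E and CD3D at 0 in all 4 libraries. The 6 fibroblast markers gave 10.2 to 12.4 CPM, nearly all from 1 gene, with COL1A2 and PDGFRB at 0 in every library, and the 4 endothelial markers gave 1.78 to 2.49 CPM. There were 23 barcode sequences found in more than 1 library, of 15146 distinct ones.

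The members split by drug. PMAIP1 (NOXA) was the one member called with fulvestrant, and it was lower by 1.78-fold against DMSO and by 2.38-fold where neratinib was present in both libraries. BMF and BBC3 (PUMA) were higher with neratinib, by 3.79-fold and 1.58-fold against DMSO, and BCL2 and BAK1 were lower. BCL2L11 (BIM), the BH3-only gene best known for its response to kinase inhibitors, was at 13.9 CPM in DMSO and 14.8 CPM in neratinib. It was called in no pair on library totals. Under the other scaling given below, by the median ratio of genes, it was called higher for both drugs against fulvestrant. The library with both drugs held the low PMAIP1 of fulvestrant and the high BMF and BBC3 of neratinib together.

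**Figure D1:**
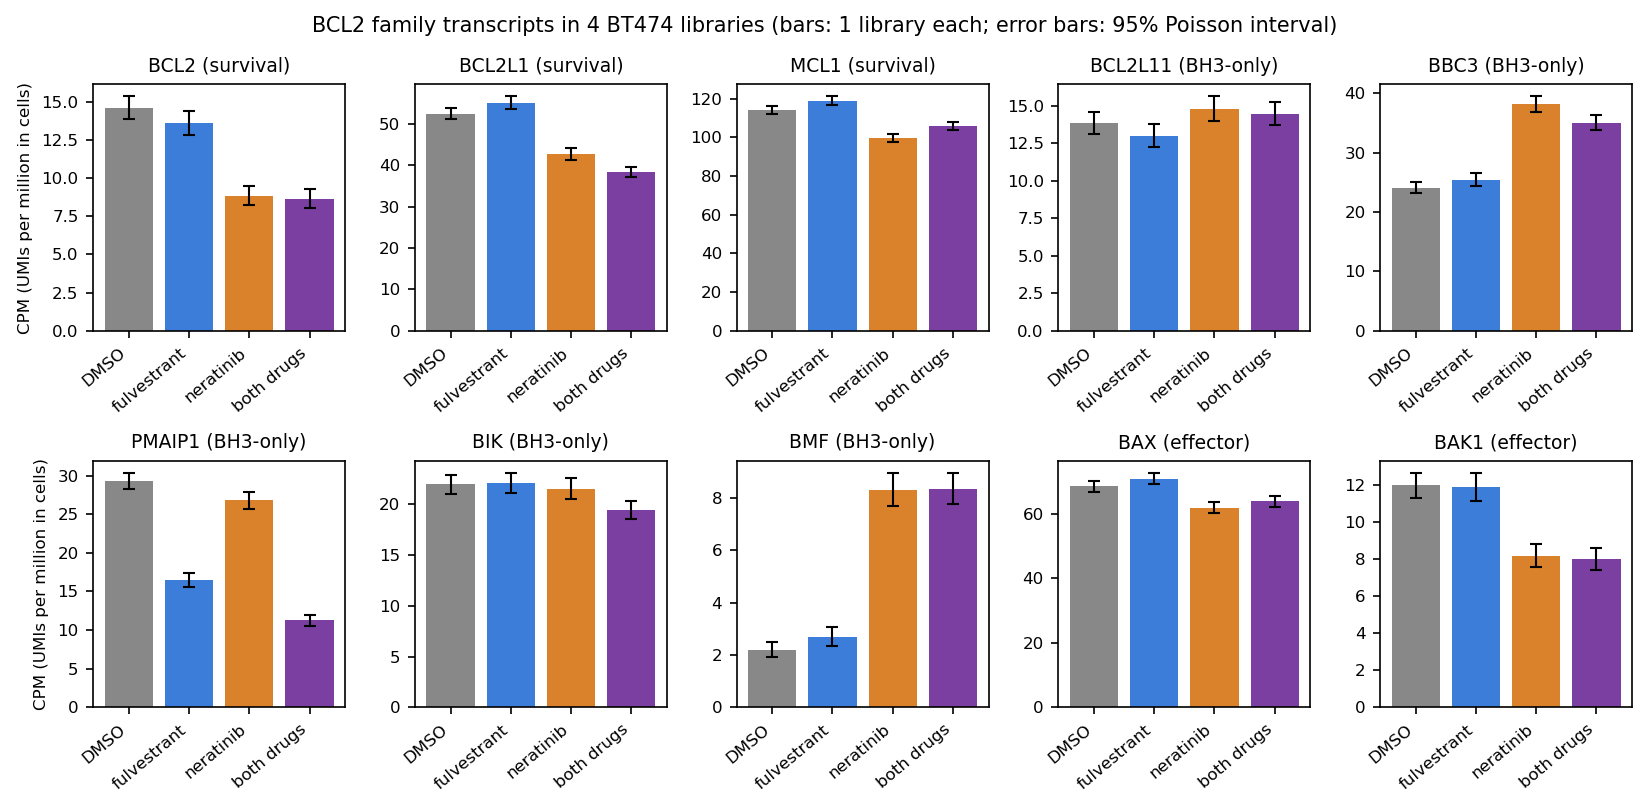
Level of each of the 10 members in the 4 libraries, in CPM on axes that start at 0 and differ between panels; bars are 1 library each and error bars are 95% Poisson intervals. PMAIP1 was lowest in the 2 libraries with fulvestrant, and BMF and BBC3 were highest in the 2 libraries with neratinib.

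Each drug was read in a pair against DMSO and in a second pair against the other drug alone, and the 2 pairs of a drug share no library. The pairs of different drugs do share libraries, so they are not independent of each other. Against DMSO, fulvestrant had 0 members called higher and 1 called lower, where 1.23% of all tested genes were called higher and 1.8% lower. Both drugs against neratinib alone gave the same counts, 0 higher and 1 lower, against 1.57% and 2.0% of all genes. Neratinib against DMSO had 2 members higher and 2 lower, where 13.6% of all genes were called higher and 33.3% lower. Both drugs against fulvestrant alone had 2 members higher and 4 lower, against 13.8% and 32.4% of all genes. Both drugs against DMSO likewise had 2 higher and 4 lower, against 14.9% and 33.3%. With neratinib the shares of members called stood near those of all genes, and the values of single members carry the description below.

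Neratinib also moved the middle of the distribution. The median log2 ratio of all tested genes was -0.16 for neratinib against DMSO and -0.15 for both drugs against fulvestrant, while it was 0.00 and 0.01 in the fulvestrant pairs. The members' own medians were -0.14 and -0.18 in the neratinib pairs and 0.03 and -0.03 in the fulvestrant pairs. Scaling by the median ratio of well-expressed genes in place of the total changed the split of all genes for neratinib against DMSO to 22.1% higher and 19.6% lower, with the median at 0.02. Values under that scaling are given for the members with neratinib. The median mitochondrial share of a cell's UMIs moved with neratinib too, from 16.2% in DMSO and 16.7% in fulvestrant to 21.1% in both libraries that held neratinib.

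**Figure D2:**
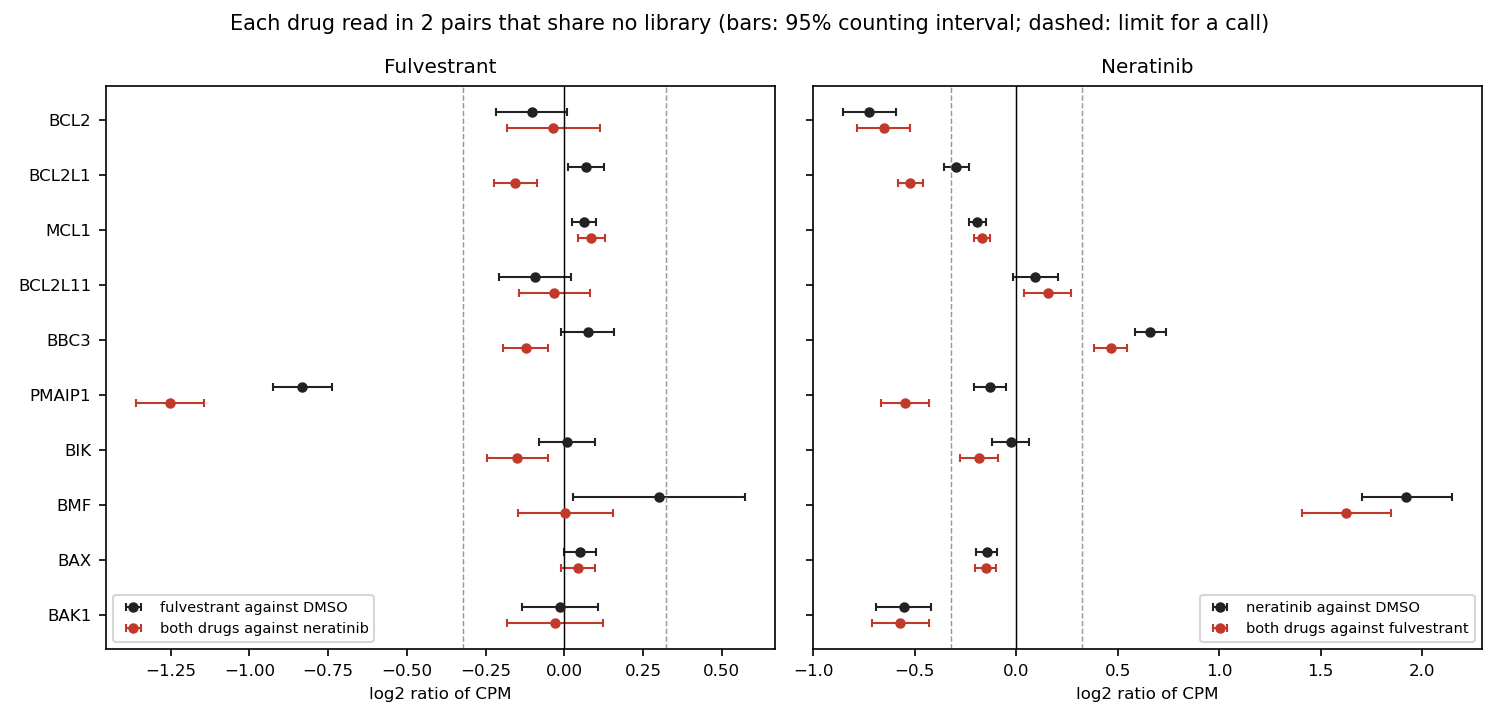
Log2 ratio of CPM for each member in the 2 disjoint pairs of fulvestrant (left) and of neratinib (right); points are ratios, bars are 95% counting intervals and dashed lines mark 1.25-fold. PMAIP1 stands apart on the left, at -0.83 and -1.25, and BMF on the right, at 1.92 and 1.62.

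Among the survival genes, BCL2, the founding member of the family and a known target of the estrogen receptor, was lower with neratinib. BCL2 stood at 14.6 CPM in DMSO, 13.6 in fulvestrant, 8.85 in neratinib and 8.64 in both drugs. Both libraries with neratinib lay below both without it, and their intervals did not overlap. The log2 ratio was -0.72 [-0.85, -0.59] for neratinib against DMSO and -0.65 [-0.79, -0.52] for both drugs against fulvestrant. Scaled by the median ratio, these were -0.54 and -0.48, so BCL2 lay below the shift of the median gene under either scaling. With fulvestrant the ratio was -0.10 [-0.22, 0.01] against DMSO and -0.03 [-0.18, 0.11] on top of neratinib, neither of them called.

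BCL2L1, whose main product is the survival protein BCL-XL, stood at 52.4 CPM in DMSO, 55.0 in fulvestrant, 42.7 in neratinib and 38.3 in both drugs. The level was lowest with both drugs, and the 4 intervals were separate from one another except those of DMSO and fulvestrant, which overlapped narrowly. The ratio was -0.30 [-0.36, -0.23] for neratinib against DMSO, short of 1.25-fold, and -0.52 [-0.58, -0.46] for both drugs against fulvestrant, which was called. Both drugs against DMSO gave -0.45 [-0.51, -0.39], also called, but -0.27 and not called when scaled by the median ratio. BCL2L1 is thus a member whose place on either side of the limit depends on the scaling.

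MCL1, a survival gene whose protein is short-lived and is the main partner of NOXA, stood at 114 CPM in DMSO, 119 in fulvestrant, 99.8 in neratinib and 106 in both drugs. The 2 neratinib libraries were the lower ones. Its ratios were -0.19 [-0.23, -0.15] and -0.17 [-0.21, -0.13] with neratinib, close to the median of all genes, and -0.01 and 0.00 when scaled by the median ratio. MCL1 was called in none of the 5 pairs.

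The promoter windows of the BH3-only genes on which the results turn are shown next. BMF and BBC3 were high with neratinib, PMAIP1 was low with fulvestrant, and BCL2L11 was called in no pair on library totals. RefSeq promoter windows of GRCh38.p14, 250 bases before to 50 bases after a start site, were found for 8 of the 10 members. They are written 5′ to 3′ on the strand of the gene. Capitals mark matches, on either strand, to the motifs searched: FOXO GTAAACA, the estrogen response half-site GGTCA, the cAMP response element TGACGTCA, the E-box CACGTG and E2F TTTCGCG.
BMF, chr15:40108830-40109129, - strand: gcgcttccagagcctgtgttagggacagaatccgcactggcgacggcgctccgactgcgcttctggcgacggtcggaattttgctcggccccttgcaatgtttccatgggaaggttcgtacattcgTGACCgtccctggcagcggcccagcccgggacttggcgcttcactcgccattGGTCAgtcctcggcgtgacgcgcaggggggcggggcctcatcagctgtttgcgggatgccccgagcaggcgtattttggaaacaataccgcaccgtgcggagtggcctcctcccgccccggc
BBC3, chr19:47232618-47232917, - strand: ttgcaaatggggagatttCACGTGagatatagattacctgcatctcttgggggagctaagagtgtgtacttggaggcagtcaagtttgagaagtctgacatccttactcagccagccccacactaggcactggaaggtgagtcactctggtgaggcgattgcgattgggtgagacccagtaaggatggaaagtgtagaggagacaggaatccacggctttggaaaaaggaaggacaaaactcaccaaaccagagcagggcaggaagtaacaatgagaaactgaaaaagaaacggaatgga
PMAIP1, chr18:59899746-59900045, + strand: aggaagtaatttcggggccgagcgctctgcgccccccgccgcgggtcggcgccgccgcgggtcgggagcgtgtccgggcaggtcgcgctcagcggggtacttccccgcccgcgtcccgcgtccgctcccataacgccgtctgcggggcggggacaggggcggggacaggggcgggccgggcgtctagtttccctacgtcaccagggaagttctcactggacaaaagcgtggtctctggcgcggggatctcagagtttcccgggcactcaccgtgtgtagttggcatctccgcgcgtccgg
BCL2L11, chr2:111120664-111120963, + strand: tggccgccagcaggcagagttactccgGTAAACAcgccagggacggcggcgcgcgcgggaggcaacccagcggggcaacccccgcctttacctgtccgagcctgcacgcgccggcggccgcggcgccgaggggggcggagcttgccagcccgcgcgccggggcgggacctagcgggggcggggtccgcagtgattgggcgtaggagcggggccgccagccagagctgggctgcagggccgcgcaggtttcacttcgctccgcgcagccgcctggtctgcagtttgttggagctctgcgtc

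The BMF window above, the first of 2 start sites listed for the gene, held the half-site letters at positions -72 and, on the other strand, -124 from the start. The half-site is short and was found in 37.4% of the 35116 windows. BBC3 held 1 E-box, a motif found in 7.26% of windows, at position -232 counted from the start. PMAIP1 held none of the 5 motifs in its window. The FOXO letters were found in BCL2L11, at position -223, and in 3.42% of all windows, but not in the BMF or BBC3 windows. BAX had 4 E-boxes and 3 half-sites, some of them overlapping, and the BCL2, BCL2L1 and BAK1 windows had none of the 5. These matches describe letters in a short window and say nothing of binding.

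PMAIP1 encodes NOXA, a BH3-only protein that binds MCL1. PMAIP1 had 29.3 CPM in DMSO, 16.5 in fulvestrant, 26.8 in neratinib and 11.3 in both drugs. The 2 libraries with fulvestrant were far below the 2 without it, and no intervals overlapped between any 2 of the 4 libraries. The log2 ratio was -0.83 [-0.92, -0.74] for fulvestrant against DMSO, rank 35 from the lowest of 12136 genes. For both drugs against neratinib it was -1.25 [-1.36, -1.14], rank 16 from the lowest. Neratinib alone left PMAIP1 at -0.13 [-0.21, -0.05], not called and of the other sign, 0.05, when scaled by the median ratio. On top of fulvestrant, neratinib gave -0.55 [-0.67, -0.43], which was called and was -0.38 by the median ratio. With both drugs PMAIP1 was 2.60-fold lower than in DMSO.

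BMF encodes a BH3-only protein that is held at the cytoskeleton through dynein light chain until it is released. It rested on few UMIs, 225 in DMSO, 226 in fulvestrant, 690 in neratinib and 759 in both drugs. In CPM these were 2.20, 2.70, 8.32 and 8.33, so that the 2 neratinib libraries were alike and both were above the other 2. The log2 ratio was 1.92 [1.70, 2.15] for neratinib against DMSO, rank 43 from the highest of 12136 genes, and 1.62 [1.41, 1.85] for both drugs against fulvestrant, rank 72. Scaling by the median ratio gave 2.10 and 1.80. Fulvestrant against DMSO gave 0.30 [0.03, 0.57], an interval just off 0 but a ratio under 1.25-fold, and both drugs against neratinib gave 0.00 [-0.15, 0.15].

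BBC3 encodes PUMA, a BH3-only protein that binds all the survival proteins. BBC3 had 24.1 CPM in DMSO, 25.4 in fulvestrant, 38.1 in neratinib and 35.0 in both drugs. The DMSO and fulvestrant intervals overlapped, and both neratinib libraries were well above them. The log2 ratio was 0.66 [0.58, 0.74] for neratinib against DMSO and 0.46 [0.38, 0.54] for both drugs against fulvestrant, or 0.84 and 0.64 when scaled by the median ratio. With fulvestrant BBC3 gave 0.07 [-0.01, 0.16] against DMSO and -0.12 [-0.19, -0.05] on top of neratinib, neither called.

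BCL2L11 encodes BIM, which binds every survival protein and can act on BAX directly. Its 4 levels lay between 12.996 CPM in fulvestrant and 14.8 CPM in neratinib. The ratio was 0.09 [-0.02, 0.20] for neratinib against DMSO and 0.15 [0.04, 0.27] for both drugs against fulvestrant, and both upper bounds lie under 1.25-fold. Scaled by the median ratio, the second of these became 0.33 and was called, and the first became 0.27 and was not. BIK, a BH3-only gene of the endoplasmic reticulum, spanned 19.4 CPM in both drugs to 22.1 CPM in fulvestrant and was called in no pair.

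Of the 2 effectors, BAK1, which sits in the mitochondrial membrane, was lower with neratinib. BAK1 had 11.98 CPM in DMSO, 11.9 in fulvestrant, 8.16 in neratinib and 7.99 in both drugs. The libraries formed 2 separate levels by neratinib. The log2 ratio was -0.55 [-0.69, -0.42] for neratinib against DMSO and -0.57 [-0.71, -0.43] for both drugs against fulvestrant, with -0.37 and -0.40 when scaled by the median ratio. BAX, the effector that moves from the cytosol to mitochondria, was at 68.6, 71.0, 62.0 and 64.0 CPM in the same order of libraries. Its ratios with neratinib, -0.14 [-0.20, -0.09] and -0.15 [-0.20, -0.10], were near the median gene and turned to 0.04 and 0.02 by the median ratio.

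Summed by role, the BH3-only genes varied most. They added up to 91.4 CPM in DMSO, 79.6 in fulvestrant, 110 in neratinib and 88.5 in both drugs, highest with neratinib alone and lowest with fulvestrant alone. Of the UMIs of the 10 genes, BH3-only genes made up 25.9%, 22.7%, 33.1% and 28.3%. These are shares of UMIs, which were not scaled by transcript length and do not compare amounts of protein. The survival genes summed to 181, 188, 151 and 153 CPM, and the effectors to 80.5, 82.9, 70.2 and 71.9 CPM. For neratinib against DMSO the survival sum had a log2 ratio of -0.26 [-0.29, -0.23] and the effector sum -0.20 [-0.25, -0.15], near the -0.16 of the median gene. Scaled by the median ratio, an alternative for the sums chosen after seeing the data, they were -0.08 and -0.02, and the BH3-only sum went from 0.26 to 0.44. The sum of BH3-only genes with both drugs differed from DMSO by a log2 ratio of only -0.05 [-0.09, -0.003], turning to 0.13 by the median ratio, while PMAIP1, BBC3 and BMF within it each differed by more than 1.25-fold.

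**Figure D3:**
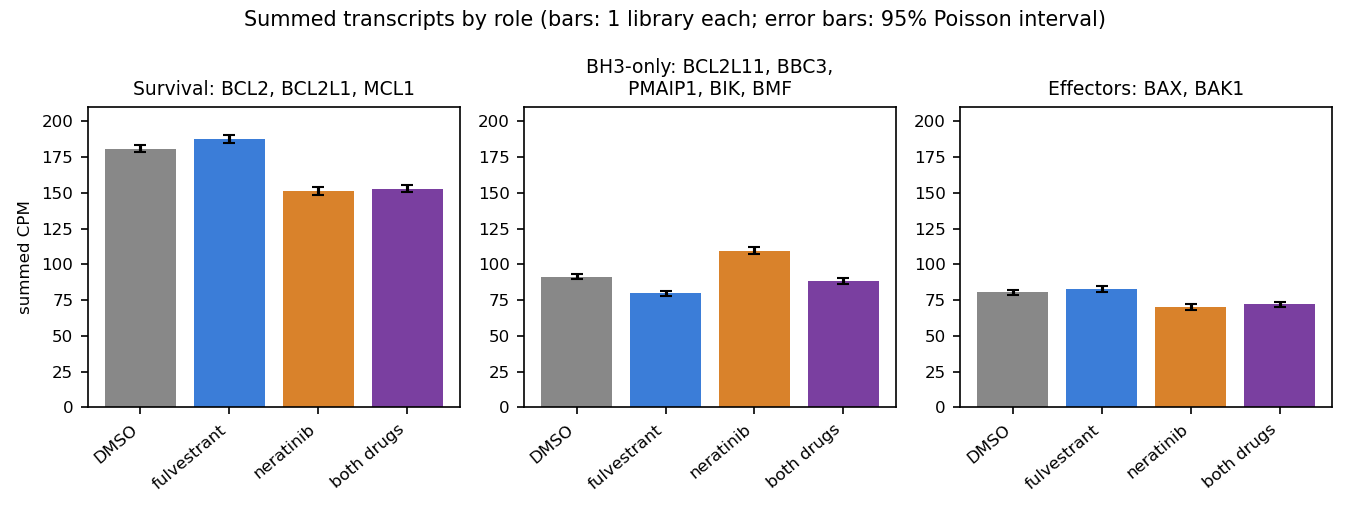
Summed CPM of the survival, BH3-only and effector genes in the 4 libraries, with 95% Poisson intervals as error bars and 1 library per bar. The BH3-only sum ran from 79.6 in fulvestrant to 110 in neratinib, while survival and effector sums were lower in both neratinib libraries on this scale, by -0.26 and -0.20 (log2) for neratinib against DMSO.

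The design with single and joint treatment allows the joint level to be set against the sum of the single ratios on the log2 scale. PMAIP1 was lower with both drugs than that sum by a departure of -0.42 [-0.56, -0.28]. BCL2L1 had a departure of -0.23 [-0.31, -0.14], BBC3 -0.20 [-0.31, -0.09] and BIK -0.16 [-0.29, -0.03]. The interval held 0 for the other 6, with BMF at -0.30 [-0.60, 0.01] and BCL2, MCL1, BCL2L11, BAX and BAK1 between -0.02 and 0.07. For scale, 4945 genes with a mean of at least 20 CPM had a median departure of 0.01 and a range from the 5th to the 95th percentile of -0.13 to 0.15. Among cells with at most 20% mitochondrial UMIs the departure was -0.43 for PMAIP1, -0.14 for BCL2L1 and -0.11 for BBC3, and the last of these no longer had its interval off 0.

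Several members also differed between cells by scored cell cycle phase. Phase was scored from lists of 42 S and 52 G2M genes, none of them a member, and G1 is what scored low on both. Cells scored as S were 20.8% of the DMSO library, 22.7% of the fulvestrant library, 15.3% of the neratinib library and 17.4% of the library that received both drugs, so the mix moved with neratinib. Between 7.52% and 10.0% of a library's cells lay near a cut between phases, and free RNA in the droplets also enters the scores, whose part was not tested.

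In DMSO, PMAIP1 was at 20.6 CPM in G1, 38.4 in S and 34.9 in G2M cells. In fulvestrant the same phases held 9.12, 27.5 and 18.1 CPM. The low PMAIP1 of fulvestrant was thus deepest in G1, with a log2 ratio against DMSO of -1.18 [-1.36, -0.996], next in G2M at -0.95 [-1.12, -0.79], and least in S at -0.48 [-0.63, -0.33]. The intervals of G1 and S did not overlap. On top of neratinib the order was the same, -1.52 in G1, -1.21 in G2M and -0.84 in S.

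With neratinib alone the phases lay closer together, at 24.8 CPM of PMAIP1 in G1, 27.7 in S and 29.1 in G2M. Against DMSO this was 0.27 [0.14, 0.40] in G1, -0.47 [-0.64, -0.30] in S and -0.27 [-0.40, -0.14] in G2M, a different sign in G1 from the other phases. The near-level ratio over all cells, -0.13, therefore held values of both signs underneath, of which only that of S was called. These ratios within phases were not scaled by the median ratio, and the median gene over all cells stood at -0.16 in this pair. With both drugs G1 cells had 8.67 CPM, within counting error of fulvestrant alone (-0.07 [-0.29, 0.14]), while S cells had 15.5 CPM, a ratio of -0.83 [-1.04, -0.62] to fulvestrant. The lower PMAIP1 of the joint treatment relative to fulvestrant lay in S and G2M cells.

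**Figure D4:**
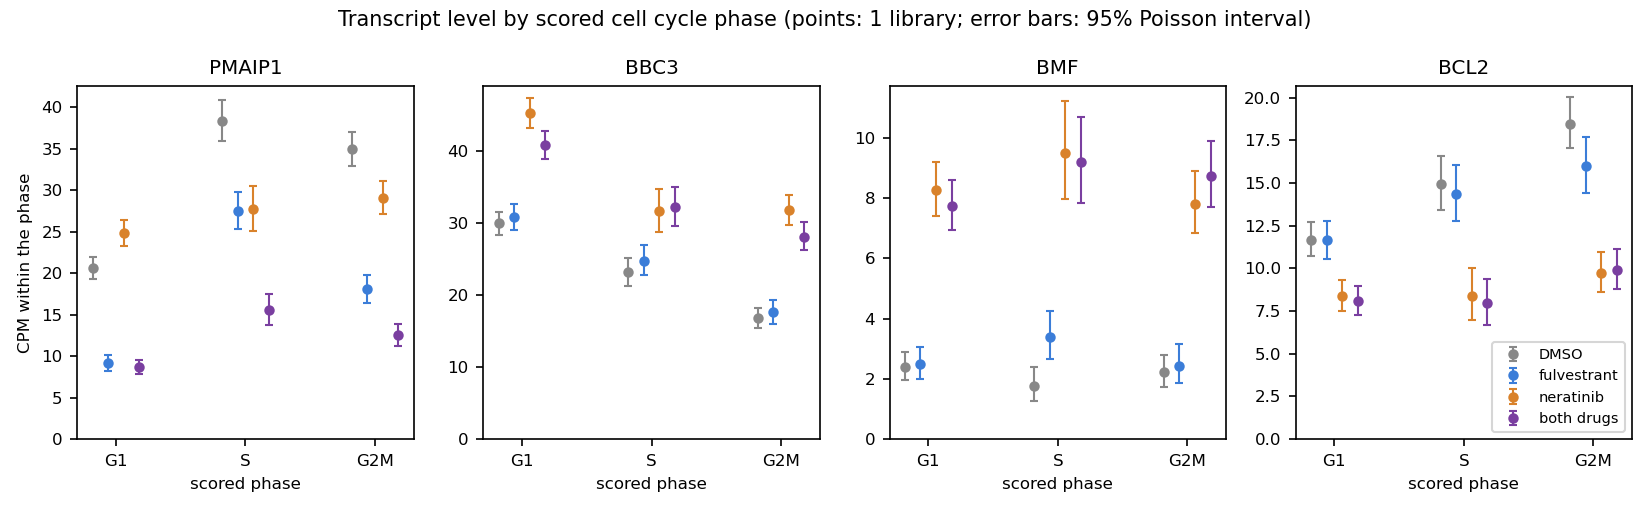
Level of PMAIP1, BBC3, BMF and BCL2 by scored cell cycle phase (x axis) in each library (colours), in CPM of the UMIs of cells in that phase, with 95% Poisson intervals. In DMSO, PMAIP1 stood at 20.6 in G1 and 38.4 in S cells, while BBC3 stood at 29.9 in G1 and 16.7 in G2M cells.

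BBC3 was highest where PMAIP1 was lowest, at 29.9 CPM in G1, 23.1 in S and 16.7 in G2M cells of DMSO, and G1 was highest in all 4 libraries. With neratinib it was higher than in DMSO in each phase, by a log2 ratio of 0.60 [0.49, 0.70] in G1, 0.45 [0.27, 0.63] in S and 0.92 [0.77, 1.08] in G2M. BCL2 was highest in G2M cells of DMSO, 18.5 CPM against 11.7 in G1, while with neratinib the phases held 8.36, 8.38 and 9.74 CPM. The ratio of neratinib to DMSO for BCL2 was -0.48 [-0.68, -0.28] in G1 and -0.92 [-1.13, -0.72] in G2M. BMF was high with neratinib in every phase, from 7.81 to 9.49 CPM against 1.77 to 2.39 CPM in DMSO. In S cells of fulvestrant BMF stood at 3.38 CPM, a ratio to DMSO of 0.93 [0.36, 1.51] that rests on 73 and 42 UMIs. Averaging the log2 ratios within phases with the DMSO phase shares as weights, which is not the ratio of reweighted levels, left the members' calls over all cells as they were, with PMAIP1 at -0.97 for fulvestrant against DMSO BMF at 1.93 and BBC3 at 0.65 for neratinib against DMSO. PMAIP1 for both drugs against fulvestrant came to -0.34 by that average, beside -0.55 over all cells; how much of the gap is the phase mix was not tested.

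Cells were next split at 20% mitochondrial UMIs, with levels taken on the total of non-mitochondrial UMIs. The share of cells up to 20% was 85.4% for DMSO and 82.5% for fulvestrant, but 37.6% for neratinib and 37.7% for both drugs. For neratinib against DMSO, BMF was 2.04 [1.77, 2.31] in cells up to 20% and 1.54 [1.03, 2.09] above, BBC3 was 0.59 and 0.56, BCL2 was -0.64 and -0.48, and BAK1 was -0.53 and -0.47. PMAIP1 with fulvestrant was -0.78 [-0.88, -0.69] up to 20% and -1.08 [-1.36, -0.81] above. These differences were present on both sides of the split. For both drugs against fulvestrant BMF, BCL2 and BAK1 were likewise called on both sides. BBC3 was 0.48 [0.37, 0.58] up to 20% in that pair but 0.321 [0.15, 0.49] above, just short of a call. How much of the BBC3 difference over all cells follows the changed mix of cells was not tested. BCL2L1 with neratinib was -0.40 [-0.48, -0.31] up to 20% and -0.21 [-0.34, -0.08] above. BBC3 itself was higher in cells above 20% than in the other cells of the same library, by a log2 ratio of 0.35 in DMSO, 0.34 in fulvestrant, 0.32 in neratinib and 0.18 in both drugs, and BCL2L1 and MCL1 were higher there in all 4 libraries too.

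At the level of single cells the counts were low. After each cell was thinned to 5000 UMIs, which left out no cell, MCL1 had a UMI in 42.1%, 44.8%, 37.6% and 40.4% of cells in DMSO, fulvestrant, neratinib and both drugs. PMAIP1 had one in 12.2% [11.3, 13.2], 6.86% [6.04, 7.75], 11.4% [10.4, 12.5] and 5.47% [4.77, 6.23] of cells. BMF had one in 1.37% [1.05, 1.77], 1.46% [1.09, 1.92], 4.31% [3.66, 5.03] and 4.26% [3.64, 4.94]. Both genes were high and low in the same libraries as by CPM, and unthinned shares were larger, 41.9% for PMAIP1 and 4.95% for BMF in DMSO. A single cell line holds no cell type that lacks these genes, so these shares have no background to be read against and do not count expressing cells.

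Barcodes with 10 to 100 UMIs, taken as a reading of free RNA, were used instead. They averaged 35.5 to 47.3 UMIs each, 0.160% to 0.215% of the median cell. In these barcodes PMAIP1 was again low in both libraries with fulvestrant, but alike in the 2, and BMF again high in both with neratinib: PMAIP1 stood at 34.4 CPM in DMSO, 15.9 in fulvestrant, 31.8 in neratinib and 16.2 in both drugs, and BMF at 2.16, 3.23, 10.7 and 10.1 CPM. BIK was the member furthest from its level in cells, at 40.9 CPM in these barcodes against 21.9 CPM in cells of DMSO, and between 35.8 and 39.1 CPM in the other libraries. The mitochondrial share of these barcodes was 6.78% to 8.68%, against 16.7% to 21.5% in cells, and its part in the higher BIK level was not tested.

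PMAIP1 was also spread more unevenly over cells than most genes of like mean, least so with both drugs. The variance over the mean of thinned cells came to 1.16 for DMSO, 1.10 for fulvestrant, 1.12 for neratinib and 1.02 for both drugs. Of the 50 genes nearest in mean in the same library, 2, 0, 1 and 16 had a higher value. BCL2 in DMSO, at 1.09 with 1 of 50 above, and BBC3 in neratinib, at 1.09 with 2 of 50 above, stood out likewise in those single libraries. BCL2L11 stayed between 0.99 and 1.01 in every library, below the median of its neighbours.

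The genes most like a member over the 4 libraries were found by the distance between centred log2 CPM profiles, among genes with a mean of at least 20 CPM. For BMF these were YPEL1, YPEL3 and the non-coding LINC01089, at distances of 0.20, 0.25 and 0.26. YPEL3 ran from 30.5 CPM in DMSO to 134 CPM in neratinib. For PMAIP1 they were MSX2, TPBG and ZNF703, at 0.33, 0.42 and 0.47, and MSX2 stood at 35.15, 15.96, 34.83 and 13.997 CPM in DMSO, fulvestrant, neratinib and both drugs. For BCL2 they were CIAPIN1, UGDH and RPS26, at 0.01, 0.02 and 0.02. Likeness over 4 libraries is a description and many genes share a profile this simple.

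Other genes of the pathway were read from 4 lists. Their ratios are on library totals and were not scaled by the median ratio. That scaling changed the split of all genes for neratinib against DMSO to 22.1% higher and 19.6% lower. It raises every ratio of a neratinib pair by one amount, which took the median gene from -0.16 to 0.02 and from -0.15 to 0.02. Lower calls near the limit are lost with it, among them BID and BIRC6 for both drugs against fulvestrant, and ratios just short of the limit become calls. In the fulvestrant pairs 1.23% and 1.57% of all genes were called higher, and 1.8% and 2.0% lower. Of 10 other BCL2 family genes tested, none was called in either fulvestrant pair, and with neratinib 0 were higher and 4 lower in each of its pairs. Of all genes, 13.6% and 13.8% were called higher in those pairs and 33.3% and 32.4% lower. The 4 lower genes of the list were BNIP1 (-1.001 against DMSO and -1.05 in the disjoint pair), the BAX-like BOK (-0.93 and -0.82), and the BH3-only genes BID (-0.59 and -0.42) and BAD (-0.53 and -0.58). BID and BAD thus lay on the other side from BMF and BBC3. BNIP2 (0.25 and 0.26) and BNIP3L (0.20 and 0.22), named after their values were seen, had intervals above 0 but stayed short of 1.25-fold on library totals. The scaling by the median ratio would carry both genes past that limit in both pairs. The list's median log2 ratio was -0.05 for neratinib against DMSO, above the -0.16 of all genes.

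Of 18 apoptosome and caspase genes tested, 0 were called with fulvestrant, and 2 were higher and 9 lower for neratinib against DMSO, where 13.6% of all genes were higher and 33.3% lower. The list median was -0.32 beside -0.16 for all genes. APAF1, the scaffold of the apoptosome, was higher at 0.60 and 0.63 in the 2 pairs. CYCS, which encodes the cytochrome c that APAF1 binds, was lower at -0.75 and -0.68, as were the caspase inhibitors XIAP (-0.63 and -0.71) and BIRC6 (-0.64 and -0.44). Not every inhibitor of the list was lower. On library totals CFLAR was called higher against DMSO (0.38) but not in the disjoint pair (0.28). The scaling by the median ratio would raise the second value past the limit. BIRC2 (0.12 and 0.13) and BIRC5 (-0.02 and -0.10) were called in neither. CFLAR, BIRC2 and BIRC5 were named after their values were seen. Of 21 genes for turnover and binding partners of family proteins, 0 were higher and 9 lower in each neratinib pair, and none was called with fulvestrant. Of all genes, 13.6% and 13.8% were higher in the neratinib pairs and 33.3% and 32.4% lower. The list median for neratinib against DMSO was -0.26. The 9 lower genes included SFN (-1.28 and -1.44), which encodes a 14-3-3 protein, FBXW7 (-0.75 and -0.65), a ubiquitin ligase subunit for MCL1, and the dynein light chains DYNLL1 (-0.65 and -0.53) and DYNLL2 (-0.81 and -0.82). DYNLL2 and DYNLL1, whose products hold BMF and BIM, were thus lower where BMF was higher.

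Of 19 transcription factors known to drive family genes, 0 were higher and 2 lower with fulvestrant against DMSO, beside 1.23% and 1.8% of all genes. The 2 were MYC (75.8 to 15.6 CPM) and PGR (143 to 81.5 CPM), and both were lower on top of neratinib too. For both drugs against neratinib the list had 1 higher and 4 lower, beside 1.57% and 2.0% of all genes. ESR1 (-0.53) and RUNX1 (-0.60) were also lower there and FOXO1 (0.39) was higher, 3 genes named after their values were seen. With neratinib against DMSO 2 were higher and 9 lower, beside 13.6% and 33.3% of all genes, with a list median of -0.27 against -0.16. The higher ones were FOXO1 (0.89 and 1.16) and FOXO3 (0.79 and 0.79), forkhead factors held back by AKT signalling that are known to act on BCL2L11, BBC3 and BMF. FOXO1, at 0.97 CPM in DMSO and 1.80 in neratinib, lay near the minimum of 1 CPM, while FOXO3 went from 69.1 to 119 CPM. The lowest ratios against DMSO were those of ETS2 (-1.82, and -1.68 in the disjoint pair) and MITF, a known activator of BCL2 in melanocytes (-1.11 and -0.81). Both rested on low levels, 2.05 CPM in DMSO and 0.58 in neratinib for ETS2, and 2.29 and 1.06 for MITF. On library totals MYC was also called lower in both neratinib pairs, at -0.325 against DMSO and -1.40 in the disjoint pair. The first of these was barely past the limit, 0.322 in size. Scaling by the median ratio raises every ratio of that pair by one amount and would bring MYC inside the limit, so that call rests on the scaling. All these are transcript levels, and factor activity was not measured.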

How the data were processed

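The authors deposited 1 unfiltered matrix of UMI counts for all 4 libraries, made using Cell Ranger 3.1.0 (source: the submitters' processing notes), from 10x 3′ libraries per the labels' protocols. The notes name hg19, so no coordinates are given for the counts, and no source used here says whether counting used strand. BMF, BCL2, BCL2L1 and BCL2L11 overlap a gene on the other strand that is also in the matrix. The number ending each barcode was matched to the number starting each sample title.

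Cells were barcodes with at least 5000 UMIs and 500 genes, with no mitochondrial ceiling and no doublet call. Counts were summed per library and scaled to CPM (pandas 2.3.3, scipy 1.17.1). Intervals are exact: Poisson for CPM, conditional binomial for ratios, Clopper-Pearson for shares, at 95%. Phases were scored with scanpy 1.11.5. Alternatives changed the scaling, the cells kept, the depth, the phase mix and the limits. The calling of genes was tried on simulated Poisson counts, which hold counting error only, so it says nothing about variation between cultures. Named were all members, up to 4 genes per list called the same way in both pairs of a drug, and the 3 genes most alike in profile to the 3 members of widest range. The members and lists were chosen with earlier results of these data known.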

Additional observations from a re-analysis of the deposited data

How the results depend on the processing

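No paired analysis was possible because each group had 1 library, and for the same reason no replicate could be left out. Asking for 1.5-fold in place of 1.25-fold left 2 members higher and 1 lower for neratinib against DMSO, beside 7.03% and 15.1% of all genes. Both drugs against fulvestrant kept 1 higher and 1 lower, beside 7.26% and 14.6%. Both drugs against DMSO kept 1 higher and 2 lower, beside 7.94% and 15.7%. PMAIP1 stayed lower in both fulvestrant pairs, where 0.57% and 0.63% of all genes were lower. Over the alternative values of the members' log2 ratios, 416 moved by less than their counting interval and kept their side of the limit, 31 moved further, 2 came to be called and 1 was lost. The lost one was BCL2L1 for both drugs against DMSO, at -0.27 with scaling by the median ratio. The 2 gained were BCL2L1 for neratinib against DMSO with at most 20% mitochondrial UMIs, at -0.43, and BCL2L11 for both drugs against fulvestrant with scaling by the median ratio, at 0.33. The departure from additivity of BMF came off 0 with that scaling, at -0.31, and that of BBC3 reached 0 with the mitochondrial limit, at -0.11. Uncalled ratios of PMAIP1 (0.05), BIK (0.15) and BAX (0.04) for neratinib against DMSO turned sign by the median ratio. Removing mitochondrial transcripts from the totals gave 17.6% of all genes higher and 25.9% lower in that pair. Leaving out the 5% of cells with most UMIs in each library changed no call. Shares of cells with a UMI grew with the depth kept. BMF rests on as few as 225 UMIs in a library.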
